A study of Mus musculus with 14 samples.

Results

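The circadian output genes of liver described here are Dbp, Tef, Hlf, Nfil3, Usp2, Noct, Bhlhe40 and Bhlhe41. The 8 genes were chosen by name as rhythmic output genes, with tumour and normal liver values of these samples already known, and all 8 were found among the 30436 features left when transcript rows were summed per gene. RNA was sequenced from 14 liver samples of male mice of the strain C3HeB/FeJ, which forms liver tumours without any treatment. All animals were 18 months old and were kept at 14 h of light and 10 h of dark. A search for tumours at 10 months was followed by 6 cycles of 28 days, each with injections on 5 successive days.

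The 4 normal livers (Normal 1 to 4) came from mice given phosphate citrate buffer. Of the 6 tumours marked Grow, 1 and 5 received the solvent DMSO, 6 received the histone deacetylase inhibitor SAHA (suberoylanilide hydroxamic acid) at 100 mg/kg, and 2, 3 and 4 received SAHA at 85 mg/kg with 22 mg/kg of the DNA-alkylating drug TMZ (temozolomide). Of the 4 tumours marked Regress, 1 and 3 received TMZ at 31 mg/kg, 2 received buffer and 4 received DMSO. The labels do not define growth or regression, do not say which samples share an animal, and give no hour of collection. The tests below therefore measure the spread between these samples only, and differences in hour between samples cannot be told apart from differences between groups.

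In liver, the clock made by the activators ARNTL and CLOCK and the repressors PER and CRY drives daily rhythms in a second tier of genes. DBP, TEF and HLF are PAR bZIP transcription factors (proline and acidic amino acid-rich basic leucine zipper proteins) that activate genes through D-box elements, and NFIL3 is a bZIP repressor that binds the same elements. Nfil3 is itself repressed by the nuclear receptors NR1D1 and NR1D2 through ROR elements, so that in normal tissue it peaks out of phase with Dbp. BHLHE40 and BHLHE41 are basic helix-loop-helix repressors that compete for the E-boxes bound by ARNTL and CLOCK. Usp2 encodes a deubiquitinating enzyme and Noct encodes nocturnin, a phosphatase of NADPH related to deadenylases. Both transcripts are strongly rhythmic in liver.

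Promoter sequences from RefSeq (build GRCm38.p6) covered 7 of the 8 members in 8 windows of 300 bases each, from 250 bases before to 50 bases after an annotated start. The 5 windows shown are those of the members whose values differed most in kind below: Tef, whose 2 starts give separate transcript rows, Nfil3, the repressor, Dbp, and Usp2, with the largest difference. Capitals mark the matches to the motifs searched on both strands, which were the E-box CACGTG, the E-prime box CACGTT, the D-box (TTATGTAA or TTACGTAA) and the ROR element (TAGGTCA or TGGGTCA).
Tef, upstream start, chr15:81802423-81802722, + strand: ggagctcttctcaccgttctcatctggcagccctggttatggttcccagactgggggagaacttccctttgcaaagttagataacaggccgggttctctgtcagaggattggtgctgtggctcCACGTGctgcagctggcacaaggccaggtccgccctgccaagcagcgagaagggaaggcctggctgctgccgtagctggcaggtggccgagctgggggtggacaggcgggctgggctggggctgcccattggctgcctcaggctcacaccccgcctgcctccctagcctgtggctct
Tef, downstream start, chr15:81811164-81811463, + strand: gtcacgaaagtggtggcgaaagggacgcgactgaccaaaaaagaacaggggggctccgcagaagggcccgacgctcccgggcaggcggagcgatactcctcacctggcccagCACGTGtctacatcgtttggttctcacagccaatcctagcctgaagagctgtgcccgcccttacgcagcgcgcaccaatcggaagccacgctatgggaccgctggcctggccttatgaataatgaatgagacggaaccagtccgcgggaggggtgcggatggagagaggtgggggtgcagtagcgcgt
Nfil3, chr13:52980990-52981289, - strand: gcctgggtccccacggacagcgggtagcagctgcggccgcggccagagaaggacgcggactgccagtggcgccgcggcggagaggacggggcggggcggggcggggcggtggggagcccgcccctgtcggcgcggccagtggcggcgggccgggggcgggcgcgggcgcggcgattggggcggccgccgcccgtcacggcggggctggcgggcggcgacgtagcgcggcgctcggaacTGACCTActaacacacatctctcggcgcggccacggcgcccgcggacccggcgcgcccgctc
Dbp, chr7:45704997-45705296, + strand: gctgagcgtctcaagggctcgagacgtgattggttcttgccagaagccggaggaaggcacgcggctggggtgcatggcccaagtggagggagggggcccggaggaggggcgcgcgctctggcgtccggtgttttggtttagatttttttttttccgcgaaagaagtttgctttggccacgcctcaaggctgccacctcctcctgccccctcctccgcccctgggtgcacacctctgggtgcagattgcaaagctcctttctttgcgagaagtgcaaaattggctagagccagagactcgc
Usp2, chr9:44084670-44084969, + strand: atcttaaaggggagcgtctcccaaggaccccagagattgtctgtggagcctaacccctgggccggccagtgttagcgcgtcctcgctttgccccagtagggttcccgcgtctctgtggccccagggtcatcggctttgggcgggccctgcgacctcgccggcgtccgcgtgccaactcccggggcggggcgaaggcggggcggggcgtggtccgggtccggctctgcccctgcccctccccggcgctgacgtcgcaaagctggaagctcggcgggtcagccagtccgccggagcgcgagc

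Both Tef windows held an E-box, 127 bases before the annotated upstream start and 138 bases before the downstream one. The counted upstream Tef row begins 252 bases before the annotated upstream start, so that E-box lies after the row's own start. The Bhlhe41 window (chr6:145865371-145865670) held another, 153 bases before the start. The Nfil3 window held TGACCTA, a ROR element read on the opposite strand, 12 bases before the annotated start. The counted Nfil3 row begins 34 bases before that start, so the match lies after the row's own start. For Dbp the counted row begins 159 bases before the annotated start of its window. The other windows held none of these letters. Of all 32851 mouse windows of the same length, 7.15% held an E-box, 4.68% an E-prime box, 1.06% a D-box and 6.45% a ROR element. No 2 matches overlapped in a member's window. A match describes letters in the sequence, and elements outside the window were not searched.

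Library totals ran from 4707063 to 13394301 estimated counts, and levels below are CPM, counts scaled to a common library size after TMM normalization, which also allows for composition. The labels give Normal 4 and Regress 2 an identical sample code, so those libraries may share an animal. Grow 3 and Grow 4 were far more alike than any other libraries of 1 group, with a median chi-square ratio over genes of 1.94 against at least 4.66, but still differed by more than sampling noise. Hepatocyte markers were detected in every library, at a summed 67610 to 98490 CPM in Normal, 46750 to 277300 in Grow and 82500 to 199800 in Regress. Over the tumours 3 of the 6 markers had higher values and 3 lower. Alb was at 142280 CPM or more in Grow 1, 2, 5 and 6, against 28650 to 53813 in Normal. Cps1 was at 55.8 and 50.3 CPM in Grow 3 and 4, against 1518 to 3937 in Normal.

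Hlf, Usp2 and Noct were lower in each of the 10 tumours than in each of the 4 normal livers. Dbp and Tef were lower in 9 of the 10 and reached or passed the normal range in Regress 2. Nfil3 differed in both directions, and Bhlhe40 overlapped between the groups. Among 12300 features tested, 0.935% had every tumour library below every normal one, against 3 of the 7 members that passed the filter on low counts. The members were chosen with this contrast known, so that share is printed for scale and nothing is read from it.

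**Figure D1:**
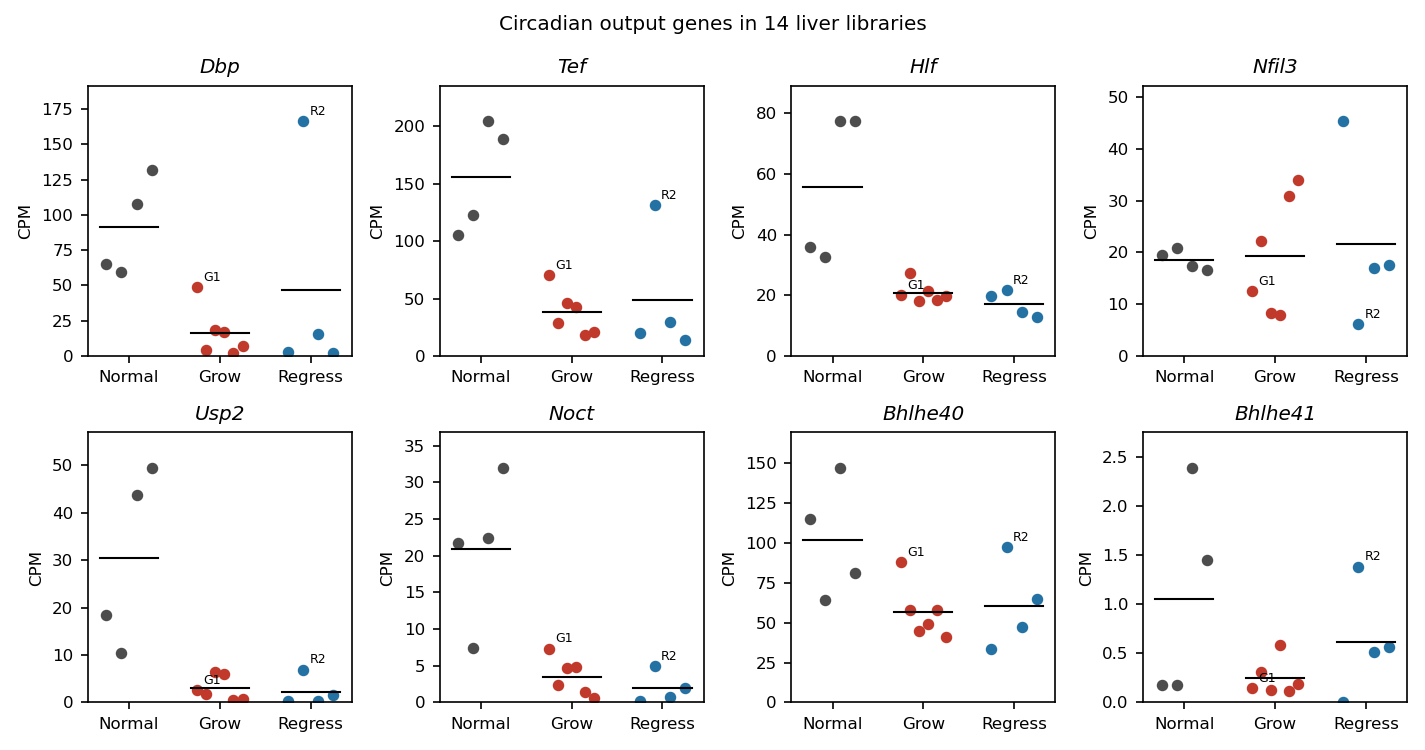
CPM of each of the 8 members (y axis, from 0) in the Normal, Grow and Regress groups (x axis), with 1 point per library and a line at the group mean. G1 and R2 mark Grow 1 and Regress 2. Hlf, Usp2 and Noct show no overlap between tumours and normal livers, while Dbp in Regress 2 is at 166 CPM, above all 4 normal livers.

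Dbp, a PAR bZIP activator whose transcript swings widely over the day, was at 65.3, 59.6, 108 and 132 CPM in Normal 1 to 4. In the Grow tumours it ran from 2.06 to 48.6 CPM with a median of 12.0. In Regress 1 to 4 it was at 2.96, 166, 15.5 and 1.98 CPM. Every tumour apart from Regress 2 was below the lowest normal liver, and within both tumour groups 1 library stood far above the rest. Group means were 91.2 ± 34.7 CPM (SD, n = 4) in Normal, 16.2 ± 17.3 (n = 6) in Grow and 46.7 ± 80.1 (n = 4) in Regress. The log2 fold change against Normal was -2.48 ± 1.03 (SE) in Grow and -0.97 ± 1.13 in Regress. Without Regress 2 the Regress value became -3.79, so this 1 library set its size.

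Tef was at 106, 123, 205 and 189 CPM in Normal 1 to 4. Its Grow values ran from 18.3 to 70.3 CPM with a median of 35.7, and Regress 1 to 4 were at 20.3, 131, 29.4 and 14.0 CPM. Regress 2 lay inside the normal range, and the other 9 tumours lay below it. The means were 156 ± 48.5 CPM in Normal (SD, n = 4), 37.9 ± 19.4 in Grow (n = 6) and 48.7 ± 55.4 in Regress (n = 4). The log2 fold change was -2.03 ± 0.55 (SE) in Grow and -1.68 ± 0.63 in Regress against Normal. It became -2.88 in Regress without Regress 2.

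Hlf, the third PAR bZIP activator, was at 36.0, 32.6, 77.4 and 77.4 CPM in Normal 1 to 4. Its Grow values ran from 18.2 to 27.2 CPM with a median of 19.9, and Regress 1 to 4 were at 19.9, 21.7, 14.4 and 12.98 CPM. All 10 tumours lay below all 4 normal livers, Regress 2 and Grow 1 included. The means were 55.8 ± 24.9 CPM in Normal (SD, n = 4), 20.9 ± 3.35 in Grow (n = 6) and 17.3 ± 4.22 in Regress (n = 4). The log2 fold change was -1.42 ± 0.27 (SE) in Grow and -1.69 ± 0.31 in Regress.

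The 3 activators thus differed in how evenly their values lay below Normal. Over the 10 tumours the coefficient of variation (SD as a share of the mean) was 20.4% for Hlf, 84.2% for Tef and 178% for Dbp. In Regress 2, Dbp stood at 182% of the normal mean and Tef at 84.4%, while Hlf stood at 38.9%. In Grow 1, Dbp was at 53.3%, Tef at 45.2% and Hlf at 35.7% of the normal mean.

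Nfil3, the repressor at the same D-box elements, was at 19.5, 20.8, 17.3 and 16.6 CPM in Normal 1 to 4, a narrow band. Its Grow values ran from 7.90 to 33.9 CPM with a median of 17.3, and Regress 1 to 4 were at 45.3, 6.13, 17.0 and 17.6 CPM. Of the 10 tumours, 4 lay above every normal liver, 4 below every normal liver and 2 inside the normal band. The means lay close together, at 18.6 ± 1.96 CPM in Normal (SD, n = 4), 19.3 ± 11.4 in Grow (n = 6) and 21.5 ± 16.7 in Regress (n = 4). The log2 fold change was 0.05 ± 0.50 (SE) in Grow and 0.21 ± 0.55 in Regress. Its sign turned with limma-voom, to -0.19 and -0.12, though not with library totals as the scaling. The tumours therefore differed from the normal livers in spread more than in mean, with a coefficient of variation of 64.1% over 10 tumours and 10.6% over 4 normal livers.

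Nfil3 and Dbp ran opposite to each other. Regress 2, with the highest Dbp, had the lowest Nfil3, and the 4 tumours with Nfil3 above every normal liver (Grow 2, 5 and 6 and Regress 1) had Dbp at 7.19 CPM or less. Over the 10 tumours Pearson's r of log2 CPM was -0.78 and Spearman's rho -0.77, and r was -0.778 without Regress 2 and Regress 4, the libraries farthest from the median of Dbp. In the 4 normal livers the order of Nfil3 (Normal 2, 1, 3, 4 from high to low) was the reverse of the order of Dbp. Dbp and Tef moved together (r = 0.964, rho = 0.988 over 10 tumours, and r = 0.915 without the same libraries). Hlf followed Dbp less closely (r = 0.231, rho = 0.442, and r = -0.244 without them). These correlations are descriptions over libraries that differ in treatment and group, and no test was made of them.

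**Figure D2:**
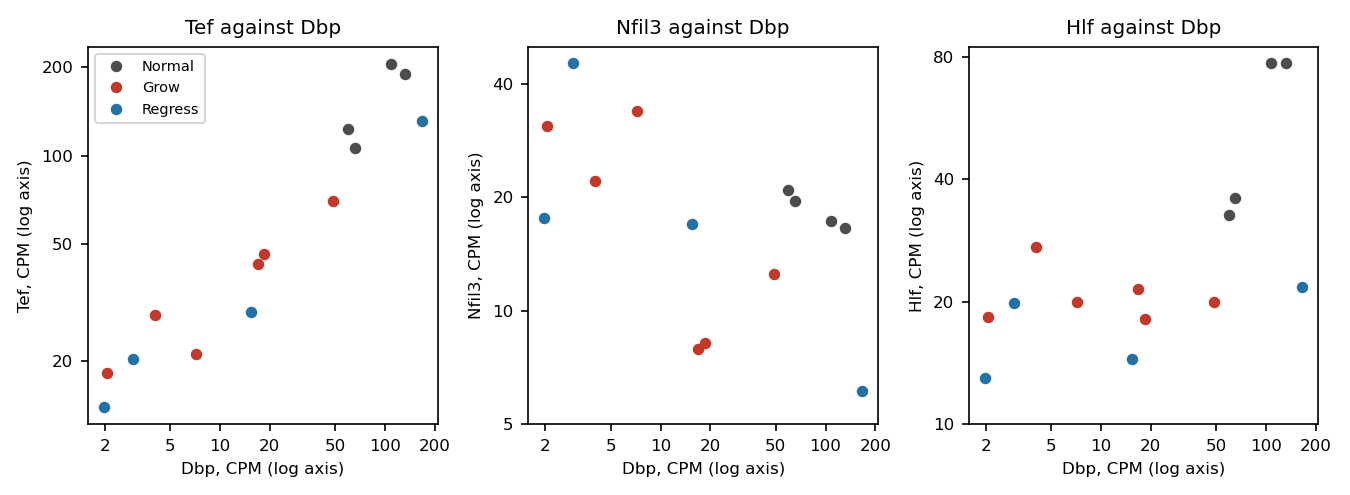
Tef, Nfil3 and Hlf (y axes, CPM, log scale) against Dbp (x axis, CPM, log scale), with 1 point per library colored by group. Tef rises with Dbp over the 14 libraries, Nfil3 is lowest in the tumour with the highest Dbp, and Hlf stays between 12.98 and 27.2 CPM in the 10 tumours while Dbp runs from 1.98 to 166 CPM.

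Usp2, the deubiquitinase gene, had the largest difference of the members. It was at 18.4, 10.5, 43.6 and 49.5 CPM in Normal 1 to 4, from 0.457 to 6.44 CPM with a median of 2.25 in Grow, and at 0.197, 6.92, 0.258 and 1.55 CPM in Regress 1 to 4. No tumour reached the lowest normal liver. The means were 30.5 ± 18.9 CPM in Normal (SD, n = 4), 3.02 ± 2.60 in Grow (n = 6) and 2.23 ± 3.19 in Regress (n = 4). The log2 fold change was -3.32 ± 0.81 (SE) in Grow and -3.75 ± 0.98 in Regress, where it became -5.34 without Regress 2. The low tumour values rest on few reads, with 1 to 51 estimated counts per tumour library against 60 to 340 per normal library.

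Noct, the nocturnin gene, was at 21.8, 7.36, 22.4 and 32 CPM in Normal 1 to 4. Its Grow values ran from 0.553 to 7.33 CPM with a median of 3.50, and Regress 1 to 4 were at 0.197, 4.94, 0.773 and 1.98 CPM. The groups did not overlap, by a margin that was small: Normal 2 at 7.36 CPM lay just above Grow 1 at 7.33 CPM. Scaled by plain library totals, Noct overlapped and Tef did not. The means were 20.9 ± 10.2 CPM in Normal (SD, n = 4), 3.51 ± 2.55 in Grow (n = 6) and 1.97 ± 2.11 in Regress (n = 4). The log2 fold change was -2.54 ± 0.66 (SE) in Grow and -3.38 ± 0.82 in Regress, and -4.32 in Regress without Regress 2.

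Usp2 and Noct moved together over the 10 tumours (r = 0.889, rho = 0.879, and r = 0.819 without the libraries farthest from the Usp2 median). Both ran opposite to Nfil3, at r = -0.89 for Usp2 and r = -0.858 for Noct. In Regress 2 they stood at 22.7% and 23.7% of the normal mean, far below Dbp in the same library.

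Bhlhe40, a repressor at E-boxes, was at 115, 64.5, 147 and 81.0 CPM in Normal 1 to 4. Its Grow values ran from 41.3 to 88.1 CPM with a median of 53.3, and Regress 1 to 4 were at 33.7, 97.3, 47.1 and 64.8 CPM. Of the 10 tumours, 7 lay below every normal liver, and Grow 1, Regress 2 and Regress 4 lay in the normal range, the last of them just above Normal 2. The means were 102 ± 36.8 CPM in Normal (SD, n = 4), 56.5 ± 16.8 in Grow (n = 6) and 60.7 ± 27.5 in Regress (n = 4), with log2 fold changes of -0.85 ± 0.32 (SE) and -0.75 ± 0.36. Bhlhe41, its paralog, was close to the limit of detection at 0 to 16 estimated counts per library. Normal 3 was at 2.39 CPM, Normal 4 at 1.45 and Regress 2 at 1.38, and no other library passed 0.590 CPM, so it failed the filter and was not tested.

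Counted over both tumour classes, edgeR's quasi-likelihood test at an adjusted p under 0.05 called 3 of the 7 tested members lower (Hlf, Usp2 and Noct) and 0 higher. Of all features it called 2.32% in either direction and 0.732% lower. The mean tumour effect was -1.56 ± 0.24 (log2, SE) for Hlf, -3.53 ± 0.71 for Usp2, -2.96 ± 0.59 for Noct, -1.85 ± 0.49 for Tef, -1.72 ± 0.90 for Dbp, -0.80 ± 0.29 for Bhlhe40 and 0.13 ± 0.47 for Nfil3. In Grow against Normal it called 1 member, Hlf, with 1.76% of features called in either direction and 0.642% lower. In Regress against Normal it called 0 members, with 0.0244% of features called in either direction and 0% lower, while 1988 features had an unadjusted p under 0.05 and DESeq2 called 712 features and 3 members. These 3 comparisons share the normal livers, and the choice of members used them, so the counts describe the members and support nothing further. Over the tested members the median log2 fold change was -1.72 for both classes together, -2.03 in Grow and -1.68 in Regress, where the median over all features was 0.01, 0.00 and 0.03.

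The calls for tumour against normal depended on single libraries. Without Normal 3 or Normal 4, 0 members were called, and 0 when Normal 4 and Regress 2 were both left out. Without Normal 1 only Hlf was called, without Regress 3 Hlf and Usp2, and without Regress 2 all of Dbp, Tef, Hlf, Usp2 and Noct. Without Regress 2 the same 5 members were also lower in every tumour than in every normal liver, as were 1.13% of all features. In bulk tissue, fewer cells of a type and less RNA per cell cannot be told apart. The 5 stellate cell markers summed to 163 to 336 CPM in Normal, 54.1 to 108 in Grow and 109 to 712 in Regress. Over the tumours 3 of them had higher values and 2 lower, from 4.26 (log2) for Col1a1 to -1.35 for Lrat. Col1a1 was at 186 CPM in Regress 4, the library with the highest sum, and at 9.59 or less in every other tumour. Fabp4, an adipocyte marker, rose by 3.08 ± 0.61 (log2, SE) over the tumours, the only 1 of 3 adipocyte markers to pass the filter. Of the others, Plin1 was at 0 CPM in every library but Regress 3, at 0.258. Adipoq was at 0.354 CPM or less in every library but Regress 3, at 7.21. Cholangiocyte markers summed to 1.60 to 5.26 CPM in Normal, 8.14 to 17.5 in Grow and 5.34 to 97.9 in Regress, with Regress 3 the highest. The markers behind the sum differed among the Grow tumours. Sox9 was at 9.59 to 15.3 CPM in Grow 1, 2, 5 and 6, above every normal liver, and made up most of their sums. In Grow 3 and 4 Sox9 was at 0 and 0.236 CPM, below every normal liver. Epcam was at 4.17 and 3.89 CPM in Grow 3 and 4, above every normal liver, but inside the normal range in Grow 2, 5 and 6. The part of these cells in the members' values was not tested.

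**Figure D3:**
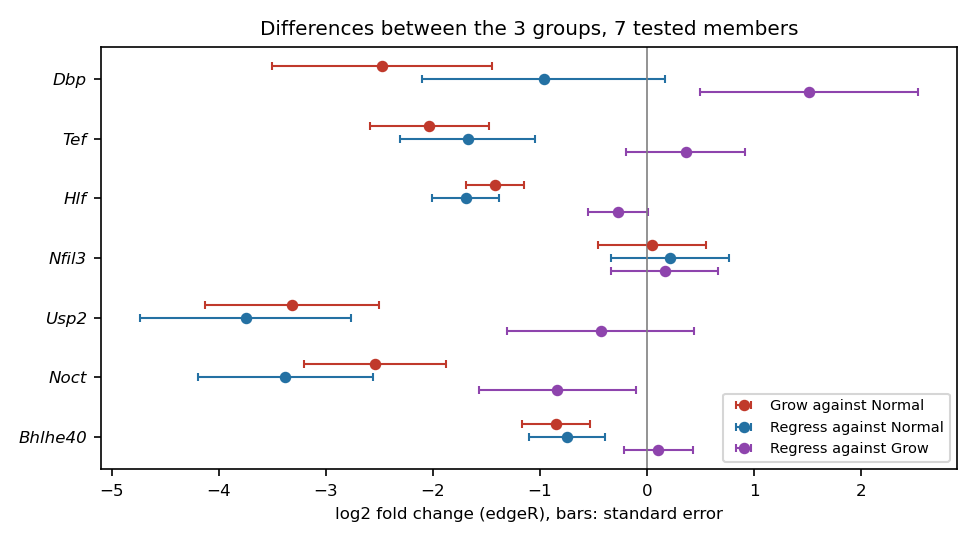
Log2 fold change (x axis) of the 7 tested members (y axis) for Grow against Normal, Regress against Normal and Regress against Grow, with bars of 1 standard error from edgeR. Usp2 and Noct lie farthest below 0 against Normal, and Nfil3 lies near 0 in all 3 comparisons.

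Per kilobase of transcript, which lets genes be compared, the median level in Normal was highest for Dbp at 47.1 CPM per kb, then Tef at 36.9, Bhlhe40 at 31.5, Usp2 at 14.6, Hlf at 10.1, Nfil3 at 9.09, Noct at 7.22 and Bhlhe41 at 0.133. The ranges of Dbp (32.4 to 71.9), Tef (24.97 to 48.3) and Bhlhe40 (20.7 to 47.3) overlapped, as did those of Usp2, Hlf, Nfil3 and Noct. In Grow the order of the medians was Bhlhe40 at 17.1 CPM per kb, Nfil3 at 8.56, Tef at 8.44, Dbp at 6.55, Hlf at 3.53, Noct at 1.14 and Usp2 at 1.06. The median of Nfil3, a repressor, was thus near those of Dbp and Tef in Grow and well under them in Normal. Such medians do not describe single tumours, where Nfil3 and Dbp ran opposite to each other. Grow 5 had Nfil3 at 30.8 CPM and Dbp at 2.06, while Grow 1 had Nfil3 at 12.5 CPM and Dbp at 48.6. In Regress 2 Dbp was at 90.6 CPM per kb, the highest value of any member in any library.

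Tef has 2 transcript rows, and their shares of its reads are estimates. The row that begins at the downstream start shown above (NM_017376.3) was at 58.8, 45.6, 99.5 and 73.6 CPM in Normal 1 to 4, from 2.65 to 45.6 in Grow, and at 20.3, 74.6, 29.4 and 13.2 in Regress 1 to 4. The row that begins 252 bases before the upstream start (NM_153484.3) was at 46.8, 77.7, 105 and 115 CPM in Normal 1 to 4, from 5.55 to 24.6 in Grow, and at 0, 56.7, 0.00368 and 0.761 in Regress 1 to 4. The upstream row carried 54.9 ± 8.70% of the Tef counts in Normal (SD, n = 4), 46.7 ± 22.5% in Grow (n = 6) and 12.2 ± 20.8% in Regress (n = 4). It was below 6% in 3 Regress tumours and at 43.2% in Regress 2. In the Grow tumours it ran from 26.1% to 87.5%, so the normal share lay inside the Grow range. Usp2 has 3 rows, and NM_198091.2, whose start lies 19 bases from the one in the window shown, carried 93.6% to 100% of its counts in the normal livers. In the tumours the Usp2 split rests on too few counts to describe.

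**Figure D4:**
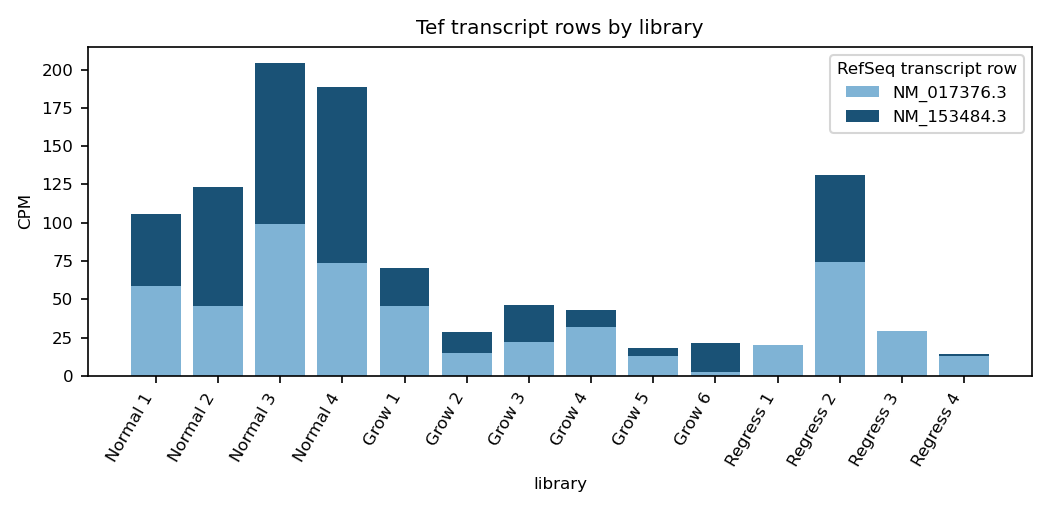
Stacked bars of the CPM of the 2 Tef transcript rows (y axis, from 0) in each of the 14 libraries (x axis). The upstream row NM_153484.3 is a large part of the bar in the normal livers and in Regress 2 and at or near 0 in Regress 1, 3 and 4.

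The core clock genes stood in the same libraries as follows. Arntl, the activator, was at 0.436 to 2.39 CPM in the 4 normal livers, 3.91 to 24.1 in Grow, and 15.0, 0.395, 6.44 and 27.8 in Regress 1 to 4. Arntl was thus above every normal liver in 9 of 10 tumours and below them all in Regress 2, the mirror image of Dbp (r = -0.877, rho = -0.891 over 10 tumours, and r = -0.696 without Regress 2 and Regress 4). Per3, a period gene, ran with Dbp (r = 0.904, rho = 0.903, and r = 0.866 without those libraries). It was at 12.3 to 32.7 CPM in Normal, at 23.2 in Grow 1 and 16.0 in Regress 2, and at 3.87 or less in the other 8 tumours. Nr1d1, the repressor of Nfil3 and Arntl, showed less of this split, at 26.8 to 114 CPM in Normal, 38.0 to 58.2 in Grow and 35.1, 46.3, 30.9 and 11 in Regress 1 to 4. Ciart, a repressor of the clock, was at 12.7 CPM in Regress 2 and at 1.90 or less in the other 9 tumours, against 1.93 to 11.8 in Normal.

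In Grow 1 and Regress 2 the clock genes differed from each other as well. Grow 1 had Per3 inside the normal range but Arntl at 11.4 CPM, above every normal liver, and its Nfil3 at 12.5 CPM was below them all. In Regress 2, Per3 and Arntl were both near the normal values, and Per1, Nr1d1, Nr1d2 and Rora were inside the normal range. Other core genes of Regress 2 lay outside it. Clock was at 7.12 CPM against 17.0 to 33.5 in Normal, and Per2 at 13.2 against 17.9 to 34.5. Cry1 at 2.97 CPM and Cry2 at 16.6 were also below every normal liver, and Npas2 at 0.791 CPM was above them all. The treatments of these tumours were DMSO and buffer, and Grow 5 and Regress 4, which also received DMSO, had Dbp at 2.06 and 1.98 CPM.

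**Figure D5:**
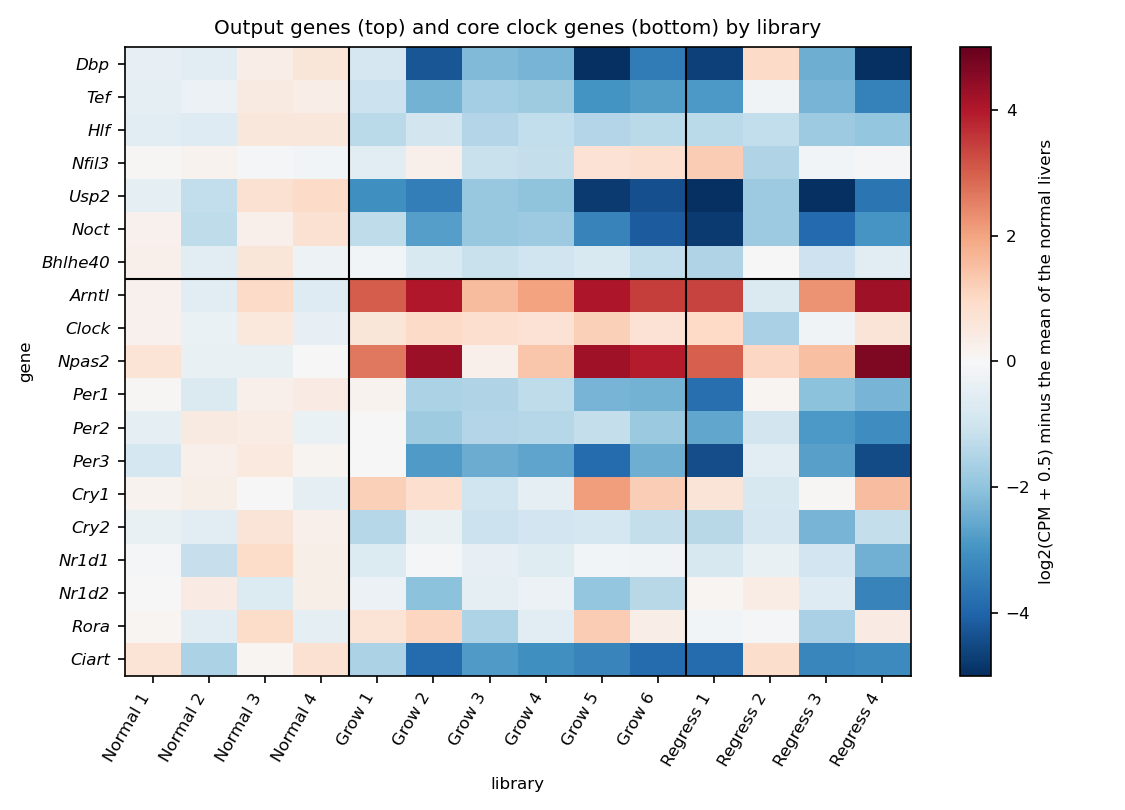
Color shows log2(CPM + 0.5) minus the mean of the 4 normal livers for the 7 tested members (top rows) and core clock genes (bottom rows) in the 14 libraries (columns), on a scale cut at -5 and 5. Regress 2 is close to the normal livers for Dbp, Tef, Arntl, Per3 and Ciart and stays low for Hlf, Usp2 and Noct. It also lies below every normal liver for Clock, Per2, Cry1 and Cry2.

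Of the 13 core clock genes, all tested, 2 passed the test lower over the tumours and 0 higher, with a median log2 fold change of -0.83. The 2 were Per2 at -1.73 ± 0.42 (SE) and Cry2 at -1.26 ± 0.28, named here after their values were seen. The largest values belonged to genes that did not pass: Npas2, a paralog of Clock, at 5.05 ± 1.32, Arntl at 3.50 ± 0.89, Ciart at -2.53 ± 0.96 and Per3 at -2.11 ± 0.76. Nr1d1 was at -0.83 ± 0.34. In Regress against Normal 0 core genes passed.

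Genes known as targets of the PAR bZIP factors in liver were listed with the same prior knowledge of these data. Of 7 such genes 6 were tested and 0 passed in tumour against normal, with a median log2 fold change of -1.49. The 4 with the largest values were Cyp7a1, the rate-limiting enzyme of bile acid synthesis, at -2.38 ± 1.27 (SE), Alas1, which starts heme synthesis, at -1.80 ± 0.53, Nr1i3, the nuclear receptor CAR, at -1.70 ± 0.64, and Por, the reductase that serves cytochromes P450, at -1.28 ± 0.44. In Regress 2, where Dbp was above every normal liver, Cyp7a1 was at 4.75 CPM against 86.5 to 549 in Normal, Nr1i3 at 9.69 against 65.1 to 154, and Por at 97.3 against 145 to 400. Alas1 in Regress 2 was at 131 CPM against 167 to 458. These 4 targets were therefore below every normal liver in that tumour, as were Hlf, Usp2 and Noct, while Cyp2a5, a cytochrome P450, was inside the normal range of 272 to 1201 CPM at 420 CPM. Abcb1a, an efflux transporter, was at 16.2 CPM there against 4.39 to 12.1 in Normal, and at 1.11 ± 0.59 (log2, SE) over the tumours. In Grow 3 and Grow 4, whose Dbp was at 18.6 and 16.9 CPM, Por was at 291 and 280 CPM and Alas1 at 235 and 228 CPM, inside the normal ranges. Cyp7a1 and Abcb1a were inside them too. Nr1i3, at 53.0 and 48.2 CPM, was below every normal liver, and Cyp2a5, at 2205 and 2207 CPM, above every one. In Regress 1, with Dbp at 2.96 CPM, Cyp7a1 and Nr1i3 were inside the normal ranges, and Alas1, Por, Cyp2a5 and Abcb1a below them.

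Of 9 other rhythmic liver genes, all tested, 1 passed higher and 0 lower over the tumours, with a median of -0.67. The 1 was Cdkn1a, an inhibitor of cyclin-dependent kinases, at 2.80 ± 0.63 (log2, SE). Elovl3, a fatty acid elongase, was at -1.49 ± 1.30, Lpin1, a phosphatidate phosphatase, at -1.46 ± 0.51, and Nampt, an enzyme of NAD synthesis, at -1.42 ± 0.44.

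Regress against Grow was not used to choose the members, and edgeR called 0 of the 7 in it, with 0% of features called. At an unadjusted p under 0.05 there were 1230 features, and DESeq2 called 31 features and 0 members. Dbp was higher in Regress by 1.51 ± 1.02 on the log2 scale (SE, 95% interval -0.67 to 3.69, edgeR adjusted p = 0.535), a value that became -1.31 without Regress 2. Tef differed by 0.36 ± 0.56 (interval -0.83 to 1.55, edgeR adjusted p = 0.766) and by -0.85 without Regress 2. Hlf differed by -0.27 ± 0.28 (interval -0.87 to 0.33, edgeR adjusted p = 0.654), the narrowest interval of the members. For Nfil3 the interval was -0.91 to 1.24, for Usp2 -2.30 to 1.44, for Noct -2.41 to 0.74 and for Bhlhe40 -0.59 to 0.79. The intervals of Dbp, Usp2 and Noct still allow differences of more than 4-fold.

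TMZ was given to 5 of the 10 tumours (Grow 2, 3 and 4 and Regress 1 and 3), and its effect beside the group called 0 of the 7 members, with 0% of features called. Those Grow tumours received it at 22 mg/kg with SAHA, and the Regress tumours at 31 mg/kg without SAHA. The fit had no term for SAHA, so the effect mixes TMZ alone with both drugs together. Grow 3 and Grow 4, the libraries most alike, are among the tumours with TMZ. At an unadjusted p under 0.05 there were 1704 features, and DESeq2 called 464 features and 0 members. Dbp ran from 2.96 to 18.6 CPM in the 5 tumours with TMZ, and was at 48.6, 2.06 and 7.19 in Grow 1, 5 and 6 and at 166 and 1.98 in Regress 2 and 4. The tumours without TMZ thus held both the highest and the lowest values. The TMZ effect on Dbp was -1.57 ± 1.06 on the log2 scale (SE, interval -3.85 to 0.72, edgeR adjusted p = 0.493), and 0.05 without Regress 2. Bhlhe40 had an effect of -0.58 ± 0.29 (interval -1.20 to 0.04, edgeR adjusted p = 0.387), and Hlf one of 0.12 ± 0.28 (interval -0.49 to 0.72). For Tef the interval was -1.77 to 0.67, for Nfil3 -1.25 to 1.08, for Usp2 -1.89 to 2.35 and for Noct -2.16 to 1.00.

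SAHA was given in 4 Grow tumours, 3 of them with TMZ, so the drugs cannot be told apart in the comparison with the 2 Grow tumours on DMSO. It called 0 of the 7 members, with 0% of features called. At an unadjusted p under 0.05 there were 325 features, and DESeq2 called 52 features and 0 members. Usp2 was at 1.86, 6.44, 6.01 and 0.738 CPM in Grow 2, 3, 4 and 6 with SAHA, and at 2.64 and 0.457 in Grow 1 and 5 without. Its difference was 1.25 ± 1.16 on the log2 scale (SE, interval -1.24 to 3.74, edgeR adjusted p = 1.00). For Dbp the interval was -4.04 to 1.80, for Tef -1.99 to 1.29, for Hlf -0.65 to 1.01, for Nfil3 -1.74 to 1.21, for Noct -2.45 to 1.49 and for Bhlhe40 -1.48 to 0.29.

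Likeness was sought among 7616 named genes whose mean log2 CPM reached 3, with the members themselves left out. Dbp and Tef were closer to each other (r = 0.961 over the 14 libraries) than to any gene named below. Per3, under the cut on level, had r = 0.934 with Dbp and r = 0.938 with Tef. Within the candidates, the gene most like each tested member over the 14 libraries, by Pearson's r of log2 CPM, was as follows. Per1, a period gene, was first for Dbp (r = 0.897) and for Noct (r = 0.918), and followed Narf (r = 0.900) for Tef at r = 0.899. Naa60 was first for Hlf (r = 0.941), Pigk for Nfil3 (r = 0.909), Rhbdd2 for Usp2 (r = 0.910) and Pa2g4 for Bhlhe40 (r = 0.880). Over the 10 tumours alone the first was Agpat5 for Dbp (r = 0.930), Jmjd6 for Tef (r = 0.932), Chmp1b for Hlf (r = 0.845), Pigk again for Nfil3 (r = 0.949), Fam50a for Usp2 (r = 0.912) and Per1 again for Noct (r = 0.885). Nr1d1 was the second for Hlf in the tumours (r = 0.774). The top of so many candidates over 14 or 10 libraries is a description of these samples.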

How the data were processed

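The library kit, Illumina TruSeq RNA v2 per the labels' protocols, does not mark strand. Salmon 0.3.1, edgeR 3.14.0 and the build mm9 stand in the submitters' processing notes. The authors deposited estimated counts per RefSeq transcript row (35230 rows, 14 libraries), and 1 further column without values was not used. Transcript rows were named through RefSeq (GRCm38.p6, 26081 rows) and GENCODE M21 (144 rows), with 9005 unmatched rows kept apart. Counts were summed per gene and rounded. The 8 members came from 11 rows. Names, lengths and promoter windows came from GRCm38, another build than the submitters'.

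All 14 libraries, of 4707063 to 13394301 counts, entered 1 edgeR fit (edgeR 4.0.16, limma 3.58.1, R 4.3.3) with 3 groups, TMM, filterByExpr and robust quasi-likelihood tests, over 12300 features. The tumour effect averages those of Grow and Regress. TMZ was a further coefficient in a separate fit of the same libraries, and SAHA was fitted in another by splitting Grow into treated and untreated. The effects of Tumour, Grow and Regress were therefore not adjusted for either drug. Adjusted p-values are Benjamini-Hochberg over all features, and the threshold was 0.05. A standard error is the size of the log2 fold change over the square root of F. For correlations, log2 CPM had a prior count of 2. On simulated data the fit recovered 11.9% of log2 changes of 1 in Grow against Normal and 5.56% in Regress against Grow. For changes of 2 it recovered 74% and 69.7%, and for changes of 4 it recovered 90.8% and 98.3%. A member that was not called can therefore still differ by a log2 change of 1.

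The members and lists were chosen with earlier results of these data known. All members are named, with up to 4 of each list by largest tumour effect, and Arntl, Nr1d1 and Per3 always. Likeness names the top genes by r outside the members. Values of 1 core clock gene are not reported here. Alternatives used RLE or library totals, no or a stricter filter (1 CPM in 4 samples), DESeq2 1.42.0, limma-voom, a length correction, a replicate block, fewer groups and libraries left out. The count of members with no overlap between groups under other settings was added after seeing the data.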

Additional observations from a re-analysis of the deposited data

Results flagged for a closer look

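Of 24 groups of 4 or 6 libraries examined (8 members in Normal, Grow and Regress), 5 had 1 library far from the rest by Dixon's criterion at the 95% level. Chance meets it in about 1 in 20 groups only where values are normally distributed and groups are independent. Here it was applied to CPM without logarithms, each flagged value was the highest of its group, and Dbp and Tef move together. The count is therefore not set against that rate. Dbp in Regress 2 was at 166.5 CPM, with the next Regress tumour at 15.45 CPM. Tef in Regress 2 was at 131.3 CPM, with the next at 29.36 CPM. Dbp in Grow 1 was at 48.65 CPM, with the next Grow tumour at 18.56 CPM. Bhlhe40 in Grow 1 was at 88.06 CPM, with the next at 57.77 CPM. Hlf in Grow 2 was at 27.25 CPM, with the next at 21.46 CPM, and that highest Grow value was still below every normal liver.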

How the results depend on the processing

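Hlf, Usp2, Noct, Tef, Dbp and Bhlhe40 were lower in the tumours under each of the settings run, while Nfil3 changed sign. For Tumour against Normal (285 features, 3 members) the features called were 1055 with DESeq2, 127 with limma-voom (45 higher and 82 lower, where edgeR had 195 and 90), 941 without drug-treated tumours, 660 with a length correction, and 0 features and 0 members without Normal 4 and Regress 2. Leaving out 1 library gave 0 to 991 features and 0 to 5 members. For Grow (217 features, 1 member) they were 1014 and 4 with DESeq2, 90 and 2 with limma-voom, 113 features with Grow 3 and 4 summed, 18 and 0 without Normal 4 and Regress 2, 488 and 0 without drug-treated tumours, 547 and 3 with a length correction, and 877 and 4 with only the groups compared. Leaving out 1 library gave 4 to 651 features and 0 to 4 members. For Regress (3 features, 0 members) they were 712 and 3 with DESeq2, 35 and 1 with RLE factors, 511 features without drug-treated tumours, 155 with a length correction, and 0 with library totals, limma-voom, Grow 3 and 4 summed, Normal 4 and Regress 2 left out, or only the groups compared. Leaving out 1 library gave 0 to 667 features and 0 to 1 member. Regress against Grow had 31 features with DESeq2 and 0 to 1249 with 1 library left out (1249 without Regress 4). TMZ had 464 with DESeq2, 79 with a length correction, 7 with library totals, 2 with limma-voom, 1 without a filter and 0 to 737 with 1 library left out (737 without Grow 2). SAHA had 52 with DESeq2. Of these alternatives, 0 called a member in Regress against Grow, TMZ or SAHA. Members below every normal liver in every tumour were 5 without Normal 4 and Regress 2, against 1.48% of all features. With 1 library left out they were 3 to 5, against 0.925% to 2.86% of all features. The cause of these shifts was not tested.

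Replicate numbers are shared by the groups, and samples of the same number gave correlations of deviations from -0.522 to 0.197. Normal 4 and Regress 2, with an identical sample code, gave 0.107, and samples of unlike number reached 0.634. The correlations therefore cannot show which samples share an animal, and the main fit did not pair samples. With a replicate block 0 features and 0 members were called in Tumour, Grow and Regress against Normal. Under it Nfil3 turned to -0.25 (log2) in Tumour and -0.61 in Grow, Dbp to -0.30 and Tef to -0.37 in Regress against Grow, Nfil3 to 0.93 and Usp2 to -2.03 for TMZ, and Hlf to -0.056, Nfil3 to 0.94 and Usp2 to -0.72 for SAHA.

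Other signs that turned were these, in log2. Nfil3 against Normal was -0.15, -0.19 and -0.12 with limma-voom in Tumour, Grow and Regress, -0.21 (Tumour) and -0.63 (Regress) without drug-treated tumours, and -0.0020 in Grow without Normal 4 and Regress 2. In Regress against Grow, library totals gave Nfil3 -0.0028 and Bhlhe40 -0.10 (with the median of all features at -0.22), limma-voom gave Tef -0.058, leaving out Normal 4 and Regress 2 gave Dbp -1.30, Tef -0.84 and Bhlhe40 -0.22, leaving out drug-treated tumours gave Nfil3 -0.86 and Usp2 1.36, and a length correction gave Hlf 0.21. For TMZ, limma-voom gave Noct 0.064, summing Grow 3 and 4 gave Nfil3 0.22 and Usp2 -0.053, and leaving out Normal 4 and Regress 2 gave Dbp 0.054 and Tef 0.31. With 1 library left out, Nfil3 ran from -0.20 to 0.28 in Tumour, -0.19 to 0.21 in Grow, -0.45 to 0.52 in Regress, -0.50 to 0.47 in Regress against Grow, -0.53 to 0.23 for TMZ and -0.77 to 0.52 for SAHA. Dbp ran from -1.31 to 2.32, -2.06 to 0.050 and -2.05 to 2.56 in the last 3 of these, and Tef from -0.85 to 0.69, -0.83 to 0.31 and -1.02 to 0.98. Bhlhe40 ran from -0.22 to 0.32 in Regress against Grow, Usp2 from -0.39 to 0.90 for TMZ, and Noct from -1.04 to 0.084 for TMZ and -1.22 to 1.24 for SAHA. Depth limits Bhlhe41, at 0 to 16 counts per library, and the split of Usp2 rows in tumours.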
